A study of Mus musculus with 20 samples.

Results

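Lysosome and cathepsin genes were measured at the level of RNA in the diaphragm of fiber-exposed mice. The 40 genes encode cathepsins, other acid hydrolases, membrane proteins of the lysosome, subunits of its proton pump, granulin and the transcription factor TFEB. They were chosen by name, with earlier results of these data known. Each was read from its brightest probe, and all 40 were found among the 34797 gene names on the array. Total RNA was extracted from the snap-frozen portion of each diaphragm 12 weeks after female C57Bl/6 mice received 1 injection of 100 µL into the pleural cavity at 8 weeks of age. The control mice received the vehicle, 0.5% BSA/saline, in which every fiber was also dispersed. LFA mice received 25 µg of amosite asbestos enriched for long fibers and SFA mice 25 µg of amosite shortened in a ball mill, both from the same amosite batch. NTL and NTS mice received 5 µg of long or short carbon nanotubes, so asbestos and nanotubes were given at different doses. The NTS were a commercial product and the NTL came from an academic laboratory, so they differed in source as well as in length. Each group had 4 arrays, from 4 animals by the study's methods.

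Lysosomes are acidic organelles in which proteins, glycans and lipids delivered by endocytosis, phagocytosis and autophagy are broken down. A vacuolar proton pump holds the lumen acidic, cathepsins and other hydrolases work at that pH, and heavily glycosylated membrane proteins line the limiting membrane. Phagocytes that take up particles are rich in lysosomes, and TFEB is a transcription factor that binds E-box elements of lysosomal genes and turns many of them on together. Muscle fibers, which make up most of the diaphragm, also contain lysosomes.

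Levels are given as the log2 intensity of a probe minus the array's own 75th percentile, so that 0 marks that percentile and 1 unit is a 2-fold difference. On all 20 arrays 39 of the 40 genes were well above background. The exception was Ctse, which was above background on 16. A gene was called higher or lower when its group means differed by at least 1 on the log2 scale (2-fold) with an adjusted p under 0.05 in limma's test over 36920 probes. Among all those probes the median change was −0.28 for LFA and −0.25 for NTL against control (−0.08 and −0.09 after quantile normalization), so a change near 0 lay above the typical probe. Levels of different genes were not compared, since each probe has its own response. Errors are standard errors (SE) from the limma fit. They and the p-values use a spread within groups that was estimated for each probe over all 20 arrays. Arrays of groups outside a comparison therefore also affect its SE and p. The small number of 4 arrays a group limits the precision.

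Single arrays that stood apart touch the results. Transcripts of 8 liver genes, at a mean log2 level of −1.97 to 5.00 on 15 arrays, reached 7.09 in SFA replicate 2, 7.21 in LFA replicate 1, 7.82 in LFA replicate 3, 8.65 in NTS replicate 3 and 8.68 in NTS replicate 4. Control replicate 2, the dimmest array by its 75th percentile (292 against up to 991 elsewhere), stood apart from the other control arrays for 9 of the 40 genes. The counts below are therefore also given without the 5 liver-rich arrays or without control replicate 2, a choice made after seeing the data.

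Against control, 7 of the 40 genes were called higher in LFA-exposed mice and 1 was called lower, while 2.21% of all tested probes were called higher and 1.75% lower. In NTL-exposed mice 11 were called higher and 1 lower, against 3.64% and 3.16% of all probes. Cathepsin S, CD68, LAPTM5, the proton pump subunit TCIRG1, beta-glucuronidase, legumain and cathepsin Z were called higher in each of the 2 comparisons, which share the 4 control arrays. Ctsc, Glb1, Man2b1 and Grn were called higher in the NTL comparison. Tfeb was the gene called lower in each.

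The median change of the 40 genes was 0.48 in LFA against control, with 29 of 40 above 0, and 0.61 in NTL, with 31 of 40 above 0. After quantile normalization these medians were 0.67 and 0.88. All 4 long-fiber arrays lay above all 4 control arrays for 12 of the 40 genes in LFA and for 17 in NTL, where the same held for 4.57% and 6.37% of the probes measured on every array. Without the 5 liver-rich arrays 13 genes were called higher and 0 lower in LFA, then resting on 2 arrays, and 13 higher and 1 lower in NTL, where 2.94% and 1.68% of all probes were called higher and lower in LFA and 4.44% and 5.14% in NTL. Without control replicate 2 the counts were 7 higher and 0 lower in LFA and 9 higher and 0 lower in NTL, where 2.03% and 0.723% of all probes were called in LFA and 3.42% and 1.54% in NTL. Leaving out LFA replicate 2 reduced the LFA count from 8 to 4, leaving out LFA replicate 4 or control replicate 1 reduced it to 5, and fitting LFA and control arrays alone gave 5. With the scan day as a block the NTL count was 7 in place of 12, and the share of all probes called higher was 2.21% in place of 3.64%.

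**Figure D1:**
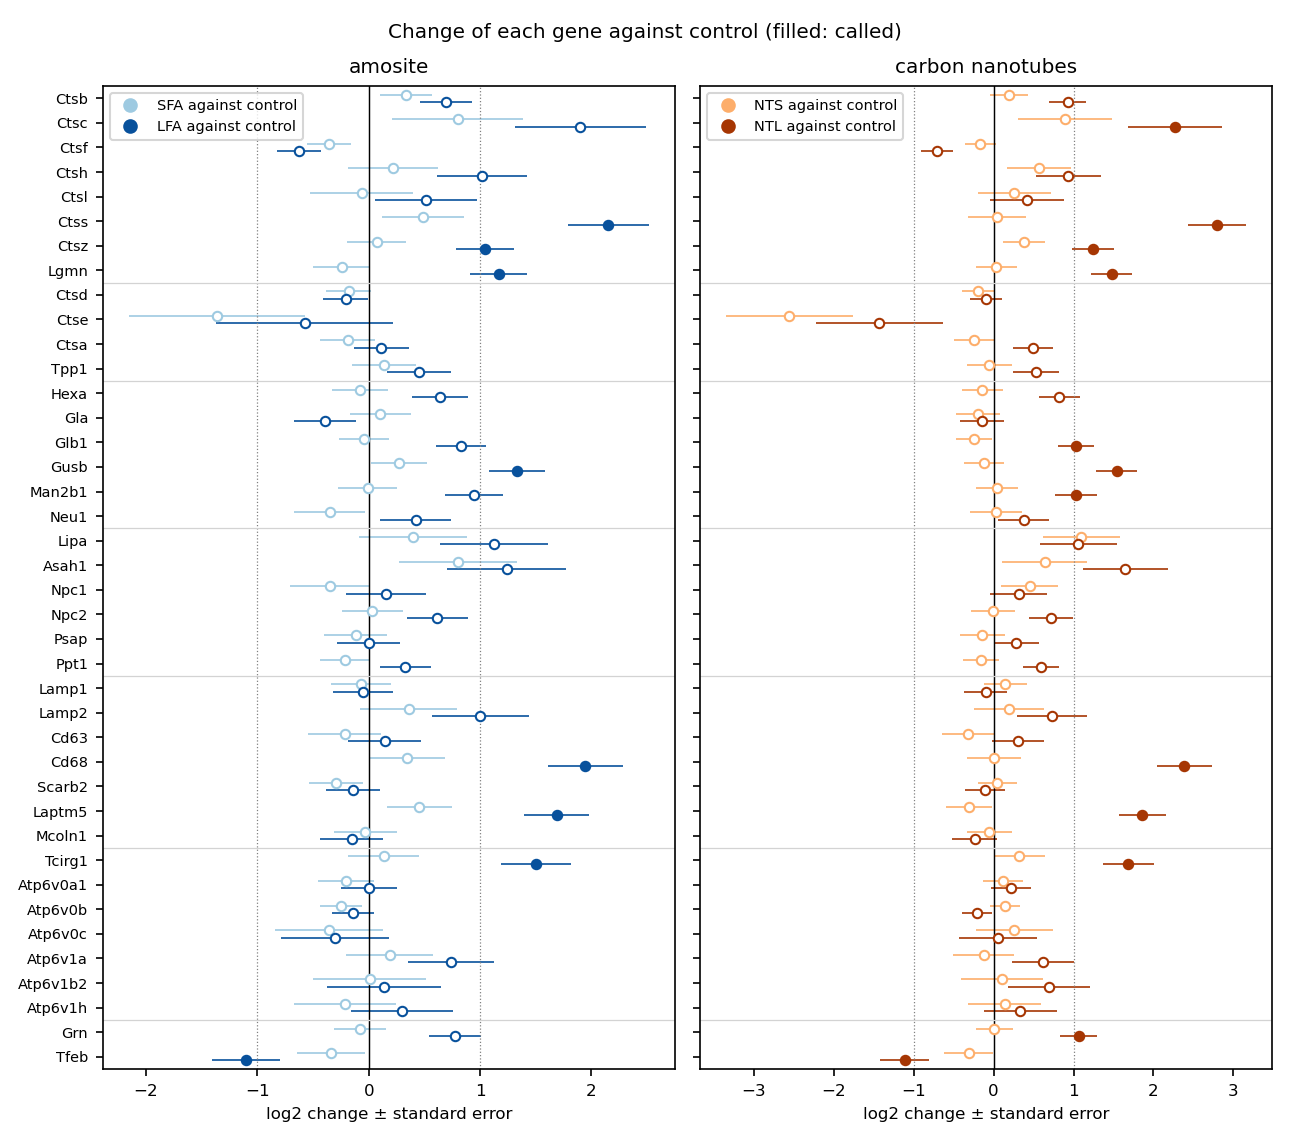
Log2 change of each of the 40 genes against control, with its standard error, for amosite (left, SFA and LFA) and carbon nanotubes (right, NTS and NTL), 4 arrays per group, grouped by role. Filled points passed the test at 2-fold and adjusted p under 0.05. Ctss, Cd68, Laptm5, Tcirg1, Gusb, Lgmn and Ctsz were called higher in both long-fiber groups, Tfeb was called lower, and no short-fiber point was filled. Ctsc, Asah1 and Lipa also stood above 1 in both, but of their points only that of Ctsc in NTL was filled.

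The probes of these genes lie, in the coordinates of NCBI37 (mm9) given by the array files, at chr3:95360245-95360304 for Ctss, chr11:69477775-69477834 for Cd68, chr4:130490785-130490844 for Laptm5 and chr19:3896678-3896810 for Tcirg1. Those of Gusb, Lgmn, Ctsz and Tfeb lie at chr5:130465133-130465192, chr12:103632415-103632474, chr2:174253228-174253287 and chr17:47929089-47929148. Their place within exons was not examined, since no annotation of that build was used here.

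Markers of macrophages moved in the same comparisons. Of 18 listed macrophage genes, all on the array, 12 were called higher in LFA and 14 in NTL, and none was called lower. Their mean log2 level ran from 1.09 to 1.34 in control, 1.07 to 1.55 in SFA and 0.91 to 1.49 in NTS, but from 2.62 to 3.26 in LFA and 3.08 to 3.27 in NTL. Cd163 was the one macrophage marker near background, at −3.83 in control, −4.93 in LFA and −3.80 in NTL. The mean level of 12 skeletal muscle genes ran from 8.38 to 8.89 in control, 7.23 to 7.88 in LFA and 7.14 to 7.32 in NTL, and 2 of these genes were called lower in LFA and 4 in NTL. Of 8 fibroblast genes 2 were called higher in LFA and 5 in NTL, and of 9 B and plasma cell genes 3 in each. Of 7 adipocyte genes 1 was called lower in LFA and 4 in NTL. Among 10 neutrophil genes 1 was called higher in LFA, and among 7 dendritic cell genes tested 3 in NTL. None of 7 T cell, 8 mesothelial, 8 liver and 3 lung genes tested was called. The part of these shifts in the lysosomal changes was not tested. In whole-tissue RNA, more cells of a type and more RNA per cell cannot be told apart.

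The cysteine cathepsins and legumain had the highest median changes of the 7 roles, with 3 of 8 called higher in LFA (median 1.03) and 4 of 8 in NTL (median 1.09). Cathepsin S is an elastase-like protease of antigen-presenting cells that degrades the invariant chain of MHC class II. Ctss read 2.98, 4.40, 3.94 and 3.02 in control replicates 1 to 4, 4.45, 3.79, 4.28 and 3.78 in SFA and 3.72, 2.90, 3.77 and 4.14 in NTS. It read 5.14, 6.20, 5.35 and 6.25 in LFA and 6.04, 6.67, 6.67 and 6.14 in NTL. All long-fiber arrays lay above all control, SFA and NTS arrays. The change of Ctss was 2.15 ± 0.36 (adjusted p = 0.00376) in LFA (4.44-fold) and 2.79 ± 0.36 (adjusted p = 0.000201) in NTL (6.93-fold), the largest called changes among the 40 genes.

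Legumain, an asparaginyl endopeptidase that matures several cathepsins, was the next clear member of this group. Lgmn read 4.28, 4.77, 4.37 and 4.46 in control replicates 1 to 4, 4.60, 4.19, 4.13 and 3.99 in SFA and 4.45, 4.46, 4.45 and 4.67 in NTS. It read 5.05, 6.20, 5.25 and 6.05 in LFA and 5.88, 6.20, 5.64 and 6.07 in NTL. NTS arrays spanned a narrow range and overlapped the control arrays, and the long-fiber arrays lay above all control, SFA and NTS arrays. Lgmn changed by 1.17 ± 0.26 (adjusted p = 0.0175) in LFA and 1.48 ± 0.26 (adjusted p = 0.00189) in NTL. The LFA call was lost without control replicate 1, LFA replicate 2 or LFA replicate 4, with a change of 0.98 to 1.10 and an adjusted p of 0.054 to 0.067. It was also lost when LFA and control were fitted alone (adjusted p = 0.093). In cathepsin Z, a carboxypeptidase also known as cathepsin X, the short nanotube arrays were split. Ctsz read 4.06, 3.76, 4.05 and 4.13 in control replicates 1 to 4, 3.80, 3.87, 4.26 and 4.36 in SFA and 3.89, 4.07, 4.83 and 4.74 in NTS. It read 5.01, 5.35, 4.45 and 5.36 in LFA and 5.31, 4.94, 5.36 and 5.37 in NTL. NTS replicates 3 and 4 lay above LFA replicate 3, and they are 2 of the 5 liver-rich arrays. Ctsz changed by 1.04 ± 0.26 (adjusted p = 0.0329) in LFA and 1.24 ± 0.26 (adjusted p = 0.00759) in NTL. In LFA it lost the call in 10 of 31 alternatives, among them leaving out any control array or LFA replicate 1, 2 or 4, with adjusted p up to 0.0962.

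**Figure D2:**
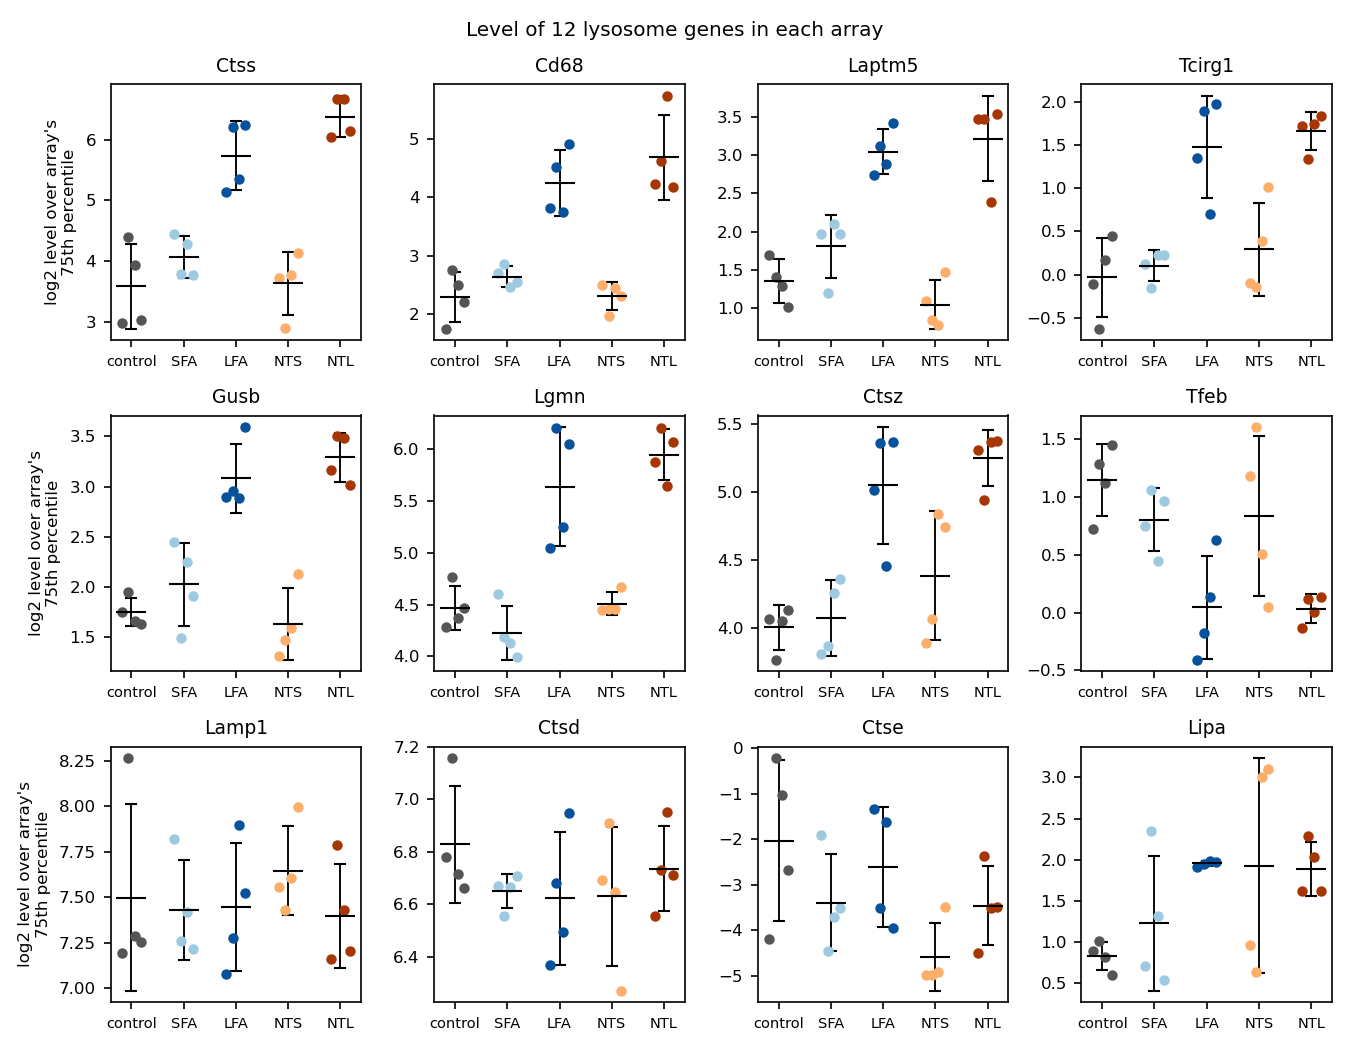
Log2 level of 12 genes in each of the 20 arrays (points, in replicate order), with the mean and SD of each group of 4 (horizontal line and bar). The scale differs between panels. The 8 long-fiber arrays lie above all control arrays for Ctss, Cd68, Laptm5, Tcirg1, Gusb, Lgmn and Ctsz and below them for Tfeb, while Lamp1 and Ctsd overlap in all groups. Lipa is shown for its high values in SFA replicate 2 and NTS replicates 3 and 4.

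Cathepsin C, the dipeptidyl peptidase that activates granule serine proteases, changed by 2.27 ± 0.59 (adjusted p = 0.0244) in NTL, and its difference of 1.90 ± 0.59 (adjusted p = 0.0691) in LFA was not called. Its control arrays read 1.48, −0.69, 1.38 and 1.30, and without control replicate 2 the NTL change was 1.75 with an adjusted p of 0.080. The call was also lost without NTL replicate 1, 3 or 4, at changes of 2.16, 2.28 and 2.21, and with the slide (2.10) or the scan day (2.04) as a block. A second, dimmer probe of Ctsc was above background on 19 arrays. It gave 1.40 (adjusted p = 0.245) in LFA and 1.89 (adjusted p = 0.119) in NTL, neither called. Cathepsin B, an abundant endopeptidase, had differences of 0.70 ± 0.23 (adjusted p = 0.0888) in LFA and 0.93 ± 0.23 (adjusted p = 0.0213) in NTL, the latter short of 2-fold. For cathepsin H, an aminopeptidase, they were 1.02 and 0.93, and for cathepsin L 0.51 and 0.42, neither called. Ctsf, for cathepsin F, ran the other way, at −0.63 ± 0.20 (adjusted p = 0.0741) in LFA and −0.71 ± 0.20 (adjusted p = 0.0353) in NTL, with every long-fiber array below every control array and no change as large as 2-fold.

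Among the membrane proteins, CD68 and LAPTM5 were called and the other 5 were not. CD68 is a heavily glycosylated lysosomal protein of macrophages, often used as their marker. Cd68 read 1.75, 2.75, 2.50 and 2.21 in control replicates 1 to 4, 2.70, 2.87, 2.46 and 2.55 in SFA and 2.50, 1.97, 2.45 and 2.32 in NTS. It read 3.82, 4.52, 3.75 and 4.91 in LFA and 4.23, 4.62, 5.73 and 4.17 in NTL. The short-fiber arrays overlapped the control arrays, and the long-fiber arrays were all above them. Cd68 changed by 1.95 ± 0.34 (adjusted p = 0.00446) in LFA (3.85-fold) and 2.39 ± 0.34 (adjusted p = 0.000384) in NTL (5.23-fold). Its second, dimmer probe gave 1.78 and 2.69.

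LAPTM5 is a transmembrane protein of lysosomes in blood-derived cells, where it steers antigen receptors to degradation. Laptm5 read 1.70, 1.41, 1.29 and 1.02 in control replicates 1 to 4, 1.97, 1.20, 2.10 and 1.97 in SFA and 1.09, 0.84, 0.78 and 1.47 in NTS. It read 2.75, 3.12, 2.88 and 3.42 in LFA and 3.47, 3.47, 2.38 and 3.54 in NTL. NTL replicate 3 stood below the other NTL arrays but above every control and short-fiber array. The change was 1.69 ± 0.29 (adjusted p = 0.00418) in LFA and 1.86 ± 0.29 (adjusted p = 0.000905) in NTL, and a second probe gave 1.74 and 1.91.

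LAMP1, the main glycoprotein of the lysosomal membrane in most cells, showed no such difference. Lamp1 read 7.19, 8.26, 7.29 and 7.25 in control replicates 1 to 4, 7.82, 7.26, 7.42 and 7.22 in SFA and 7.55, 7.43, 7.60 and 7.99 in NTS. It read 7.08, 7.28, 7.90 and 7.52 in LFA and 7.16, 7.79, 7.43 and 7.21 in NTL. The highest value was that of control replicate 2, and all groups overlapped. The difference was −0.05 in LFA and −0.10 in NTL. Scarb2, the receptor that carries glucocerebrosidase to lysosomes, stood at −0.14 and −0.11, and Mcoln1, a calcium channel of the lysosome, at −0.15 and −0.24. Cd63, a tetraspanin of late endosomes, stood at 0.14 and 0.31. Lamp2, which serves chaperone-mediated and macroautophagy, had larger differences of 1.003 ± 0.44 (adjusted p = 0.174) and 0.73 ± 0.44 (adjusted p = 0.338), neither called.

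Among the 6 glycosidases, beta-glucuronidase was called higher in LFA and 3 enzymes were called higher in NTL. Gusb removes glucuronic acid from glycosaminoglycans. Gusb read 1.76, 1.95, 1.67 and 1.64 in control replicates 1 to 4, 2.45, 1.50, 2.25 and 1.91 in SFA and 1.32, 1.48, 1.60 and 2.14 in NTS. It read 2.90, 2.95, 2.88 and 3.59 in LFA and 3.16, 3.51, 3.48 and 3.01 in NTL. Every long-fiber array exceeded every array of the other 3 groups. The change was 1.33 ± 0.25 (adjusted p = 0.00771) in LFA and 1.54 ± 0.25 (adjusted p = 0.00132) in NTL, and a second probe gave 1.20 and 1.41. Glb1, for beta-galactosidase, changed by 1.03 ± 0.22 (adjusted p = 0.00901) in NTL and had a difference of 0.83 ± 0.22 (adjusted p = 0.0423) in LFA, where all arrays exceeded control but the change stayed under 2-fold. Man2b1, for lysosomal alpha-mannosidase, behaved alike with 1.03 ± 0.26 (adjusted p = 0.0223) in NTL and 0.95 ± 0.26 (adjusted p = 0.048) in LFA. The Man2b1 call was lost without control replicate 1 (0.94), NTL replicate 2 (0.94) or NTL replicate 4 (1.06). Without control replicate 2 the Glb1 change in NTL was 0.97, and with the slide or the scan day as a block it was 0.95 and 0.93, all under 2-fold. The Man2b1 call was also lost with the scan day as a block (adjusted p = 0.062). Hexa, the alpha subunit of beta-hexosaminidase, stood at 0.64 ± 0.25 (adjusted p = 0.135) and 0.82 ± 0.25 (adjusted p = 0.0528), Neu1, a sialidase, at 0.42 and 0.38, and Gla, alpha-galactosidase, at −0.39 and −0.15. None of those 3 was called.

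The proton pump was split between 1 subunit and the rest. Tcirg1 encodes an a3 subunit of the membrane sector, known from osteoclasts and macrophages. Tcirg1 read −0.11, −0.63, 0.17 and 0.45 in control replicates 1 to 4, 0.12, −0.16, 0.23 and 0.22 in SFA and −0.09, −0.14, 0.39 and 1.01 in NTS. It read 1.34, 1.89, 0.70 and 1.97 in LFA and 1.72, 1.34, 1.75 and 1.83 in NTL. The long-fiber arrays all exceeded the control arrays, though NTS replicate 4, a liver-rich array, exceeded LFA replicate 3. The change was 1.50 ± 0.32 (adjusted p = 0.0138) in LFA and 1.69 ± 0.32 (adjusted p = 0.00331) in NTL. The LFA call was lost without LFA replicate 2 (1.37, adjusted p = 0.057) or LFA replicate 4 (1.34, adjusted p = 0.052), and when LFA and control were fitted alone (adjusted p = 0.0726). For the other 6 subunits (Atp6v0a1, Atp6v0b, Atp6v0c, Atp6v1a, Atp6v1b2 and Atp6v1h) the differences lay between −0.30 and 0.74 in LFA and between −0.21 and 0.69 in NTL, and none was called. Atp6v0a1, for the a1 relative of TCIRG1, stood at 0.00 in LFA and 0.22 in NTL.

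A further 18 genes of the pump, listed by name, were examined beside these. Of the 17 that could be tested, 1 was called. This was Atp6v0d2, a d2 subunit that replaces the widely expressed d1 in osteoclasts and some macrophages. Atp6v0d2 read −5.04, −5.02, −4.08 and −4.35 in control replicates 1 to 4, −2.75, −3.45, −3.72 and −5.17 in SFA and −4.01, −5.39, −1.87 and −0.98 in NTS. It read −0.54, −1.37, −1.24 and 1.23 in LFA and −0.76, 0.09, 1.39 and −0.80 in NTL. Its change was 4.14 ± 0.82 (SE, adjusted p = 0.00969) in LFA and 4.60 ± 0.82 (adjusted p = 0.00227) in NTL. It was well above background on 3 of 4 control arrays. NTS replicates 3 and 4, both liver-rich, lay above the other NTS arrays and below all NTL arrays. NTS replicate 4 lay above LFA replicates 2 and 3. Atp6v0d1 stood at −0.05 in LFA and 0.06 in NTL. Over the 17 genes the median difference was −0.21 in LFA and −0.37 in NTL.

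**Figure D3:**
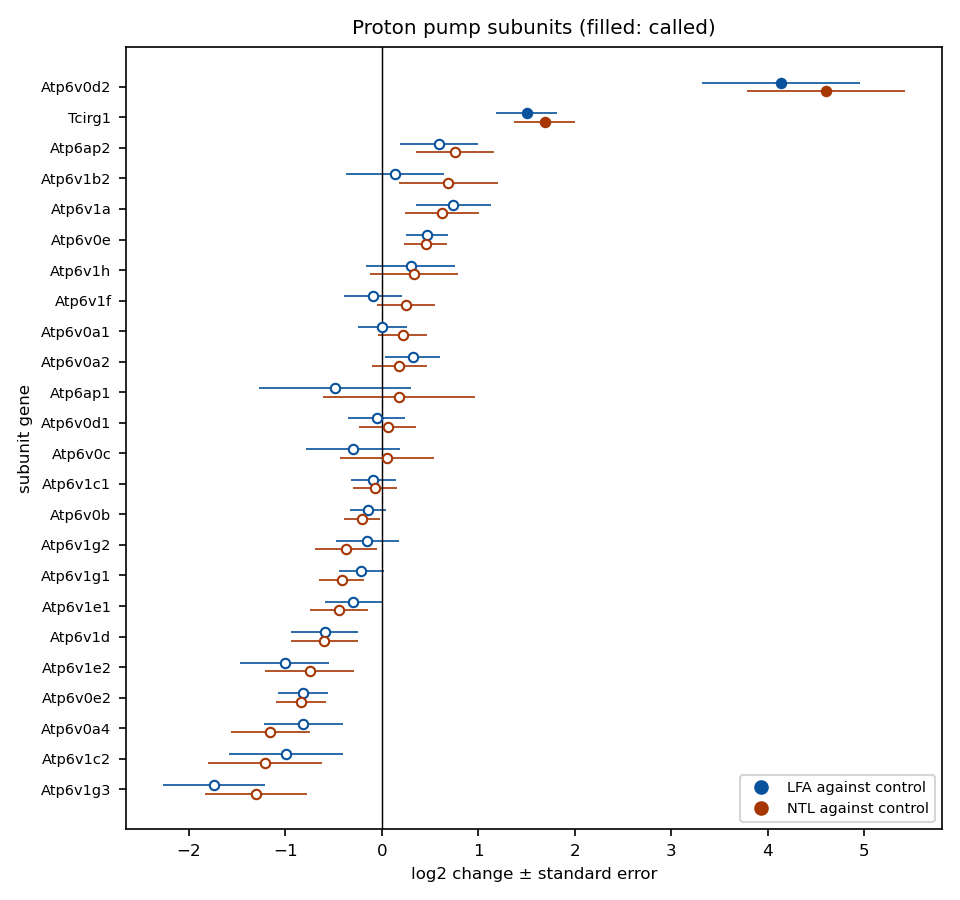
Log2 change against control, with its standard error, of 24 proton pump genes in LFA and NTL (4 arrays per group), ordered by the NTL change. Filled points passed the test. Atp6v0d2 (4.14 and 4.60) and Tcirg1 (1.50 and 1.69) stood apart, and all other subunits were uncalled.

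No gene of lipid handling was called with all 20 arrays. Lipa, for lysosomal acid lipase, which hydrolyzes cholesteryl esters and triglycerides, read 1.91, 1.95, 1.98 and 1.97 in LFA and 0.89, 1.01, 0.82 and 0.60 in control. It also read 3.003 and 3.10 in NTS replicates 3 and 4, against 0.96 and 0.64 in NTS replicates 1 and 2, and 2.35 in SFA replicate 2. Those 3 high short-fiber arrays are liver-rich, and the part of liver transcripts in them was not tested. Lipa differed by 1.13 ± 0.48 (adjusted p = 0.167) in LFA and 1.06 ± 0.48 (adjusted p = 0.191) in NTL. Without the 5 liver-rich arrays these differences were 1.13 with an adjusted p of 0.0411 and 1.06 with an adjusted p of 0.0125, past the threshold, while NTS against control stood at −0.03 in place of 1.10.

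Asah1, for acid ceramidase, showed 1.24 ± 0.53 (adjusted p = 0.167) and 1.65 ± 0.53 (adjusted p = 0.0641), with control replicate 2 at −1.77 and the other control arrays between 0.61 and 0.94. Without the 5 liver-rich arrays Asah1 was called in NTL (1.65, adjusted p = 0.0464). Npc2, a cholesterol carrier of the lumen, showed 0.61 ± 0.27 (adjusted p = 0.182) and 0.72 ± 0.27 (adjusted p = 0.117). Npc1, its partner in the membrane, showed 0.16 and 0.31. Psap, the precursor of the saposins that assist sphingolipid hydrolysis, showed 0.00 and 0.28, and Ppt1, a thioesterase, 0.33 and 0.59.

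The aspartic and serine proteases gave no call either. Cathepsin D, the main aspartic protease of lysosomes, was bright on every array. Ctsd read 6.78, 7.16, 6.72 and 6.66 in control replicates 1 to 4, 6.67, 6.56, 6.67 and 6.71 in SFA and 6.69, 6.91, 6.65 and 6.27 in NTS. It read 6.37, 6.68, 6.49 and 6.95 in LFA and 6.56, 6.73, 6.95 and 6.71 in NTL. All 5 groups overlapped, and the difference was −0.20 in LFA and −0.09 in NTL. A second, dimmer probe of Ctsd was above background on all 20 arrays. It gave −1.49 (adjusted p = 0.41) in LFA and −0.29 (adjusted p = 0.91) in NTL, neither called. Cathepsin E is an endosomal aspartic protease of epithelial and immune cells, and its probe was dim. Ctse read −4.20, −0.22, −1.03 and −2.67 in control replicates 1 to 4, −1.92, −4.45, −3.71 and −3.50 in SFA and −4.98, −4.98, −4.90 and −3.48 in NTS. It read −1.34, −3.51, −1.62 and −3.95 in LFA and −4.49, −2.36, −3.51 and −3.49 in NTL. It was well above background on 4 control, 3 SFA, 4 LFA, 1 NTS and 4 NTL arrays. The control arrays alone spanned most of the range, and the differences of −0.57 ± 0.79 (adjusted p = 0.679) in LFA and −1.43 ± 0.79 (adjusted p = 0.292) in NTL were not called. Ctsa, the protective protein of beta-galactosidase and neuraminidase, stood at 0.11 and 0.50, and Tpp1, a tripeptidyl peptidase, at 0.45 and 0.53.

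Granulin, a secreted and lysosomal glycoprotein, changed by 1.06 ± 0.23 (adjusted p = 0.00944) in NTL, and its difference of 0.77 ± 0.23 (adjusted p = 0.063) in LFA was not called. With the scan day as a block the NTL change was 0.995, just under 2-fold. Tfeb, for the transcription factor described above, was lower. Tfeb read 0.72, 1.28, 1.12 and 1.45 in control replicates 1 to 4, 0.75, 1.06, 0.45 and 0.96 in SFA and 1.18, 1.60, 0.51 and 0.05 in NTS. It read −0.41, −0.18, 0.14 and 0.63 in LFA and −0.13, 0.12, 0.00 and 0.14 in NTL. All 8 long-fiber arrays lay below all 4 control arrays, while SFA replicate 3 and NTS replicates 3 and 4 fell among the long-fiber arrays. The change was −1.10 ± 0.31 (adjusted p = 0.0496) in LFA and −1.11 ± 0.31 (adjusted p = 0.0334) in NTL, where the typical probe stood at −0.28 and −0.25. These calls were near the threshold. In LFA 26 of 31 alternatives lost it, among them quantile normalization (−1.09, adjusted p = 0.052), and in NTL 11 of 31 did, among them leaving out control replicate 2, 3 or 4 or any NTL array, with changes of −1.15 to −1.01, and the slide or the scan day as a block (−1.08 and −1.07). A second probe of Tfeb, above background on 9 arrays, gave −0.75 and −0.43, neither called.

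**Figure D4:**
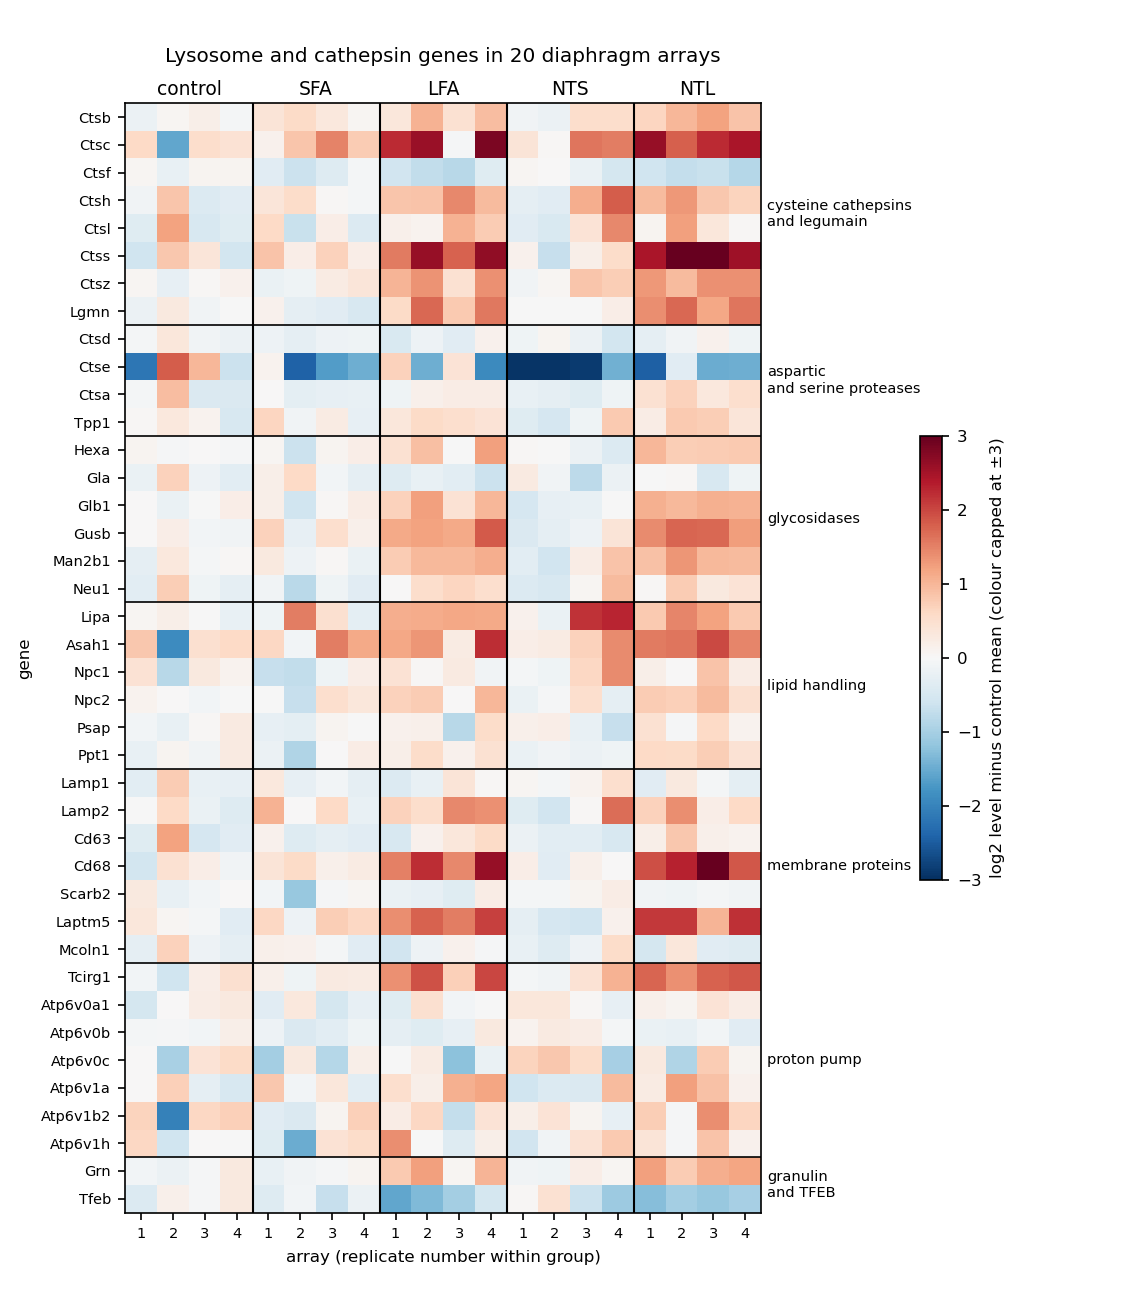
Log2 level of each of the 40 genes (rows, grouped by role) in each of the 20 arrays (columns), minus the mean of the 4 control arrays. Red is higher and blue lower, with the color capped at 3. The rows of Ctss, Cd68, Laptm5, Tcirg1 and Gusb are red in the LFA and NTL columns, the row of Tfeb is blue there, and most proton pump rows, Lamp1 and Ctsd are pale. Control replicate 2 differs from its group in several rows.

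Because TFEB acts through E-boxes near gene starts, promoter windows were read from the RefSeq table for GRCm38.p6, 250 bases before to 50 after each start. Windows were found for 33 of the 40 genes. The 6-base E-box CACGTG, which reads the same on both strands, was present in a window of 11 of the 33 (33.3%). It was present for 22% of 100 other lysosomal genes, from the wider list described below, and for 8.09% of all 27025 genes. The longer strings GTCACGTG and TCACGTGA, both of which contain CACGTG and were searched on both strands, were present for 8 (24.2%) and 5 (15.2%) of the 33 genes, against 14% and 10% of the other lysosomal genes and 2.55% and 1.12% of all genes. Among the 11 genes called higher in NTL, all with a window, 2 held CACGTG, and among the other 22 genes with a window 9 did. These are matches of letters and not measured binding.

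Stretches of these windows are printed 5′ to 3′ on the gene's strand, with CACGTG in capitals. The first stretches belong to 3 genes that hold several matches and were not called in any comparison: Lamp1 (chr8:13159073-13159160, plus strand, 4 matches, the first at −61 from the start), Mcoln1 (chr8:3500421-3500506, plus strand) and Ctsd (chr7:142387893-142388077, minus strand).
Lamp1: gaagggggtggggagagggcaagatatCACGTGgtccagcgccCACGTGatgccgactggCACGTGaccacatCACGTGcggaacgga
Mcoln1: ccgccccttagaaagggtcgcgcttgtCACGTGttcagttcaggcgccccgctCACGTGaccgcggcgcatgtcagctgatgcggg
Ctsd: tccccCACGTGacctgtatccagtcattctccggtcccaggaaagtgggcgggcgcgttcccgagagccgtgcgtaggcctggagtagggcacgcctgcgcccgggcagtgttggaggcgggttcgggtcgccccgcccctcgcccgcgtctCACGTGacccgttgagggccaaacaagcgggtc
Lgmn (chr12:102439109-102439168, minus strand) and Glb1 (chr9:114401003-114401062, plus strand) are the 2 genes called higher in NTL with a match, which begins at −49 and −48 from the start. Lgmn had 2 windows, of which only 1 held CACGTG.
Lgmn: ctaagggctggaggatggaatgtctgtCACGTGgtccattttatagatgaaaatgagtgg
Glb1: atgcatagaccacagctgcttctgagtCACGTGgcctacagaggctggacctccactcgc
The 120 bases before the start of Ctss (chr3:95526666-95526785, plus strand), Cd68 (chr11:69666171-69666290, minus strand) and Laptm5 (chr4:130913196-130913315, plus strand), which were called with the largest changes in LFA, held no CACGTG and carry no capitals.
Ctss: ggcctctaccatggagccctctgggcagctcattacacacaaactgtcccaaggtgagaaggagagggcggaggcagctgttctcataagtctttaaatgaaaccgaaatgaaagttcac
Cd68: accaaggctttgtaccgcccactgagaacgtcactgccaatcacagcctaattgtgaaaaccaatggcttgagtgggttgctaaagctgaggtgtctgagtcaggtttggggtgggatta
Laptm5: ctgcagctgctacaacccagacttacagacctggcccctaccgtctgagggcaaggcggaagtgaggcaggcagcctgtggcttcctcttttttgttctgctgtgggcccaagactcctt

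Short fibers gave no calls. Against control 0 of the 40 genes were called in SFA and 0 in NTS, and the same was true of all tested probes (0% higher and 0% lower in each). At an unadjusted p under 0.05, 0 genes differed in SFA and 2 in NTS, Ctse at −2.55 and Lipa at 1.10, where 2.3% and 3.52% of all probes passed that p. The methods' test, which allows unequal variances, gives 1 p over the 5 groups together, and it was taken with each fiber group's own 2-fold change. By it 0 genes passed in SFA and 1 in NTS, Lipa, whose high NTS arrays are the liver-rich ones. That p does not test NTS against control by itself. The median difference was −0.05 in SFA and 0.03 in NTS. In SFA the genes ran from −1.36 (Ctse) to 0.80 (Asah1 and Ctsc), and Ctss stood at 0.49 in SFA and 0.05 in NTS.

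Comparing long with short fibers of the same material addressed fiber length, together with source for the nanotubes. LFA exceeded SFA with 6 genes called higher, where 1.03% of all probes were called higher, and 0 genes were called lower, where 0.133% of all probes were. The 6 were Ctss (1.66 ± 0.36, adjusted p = 0.0289), Cd68 (1.60 ± 0.34, adjusted p = 0.0234), Lgmn (1.41 ± 0.26, adjusted p = 0.00907), Tcirg1 (1.37 ± 0.32, adjusted p = 0.0394), Laptm5 (1.23 ± 0.29, adjusted p = 0.0447) and Gusb (1.05 ± 0.25, adjusted p = 0.0488). Every LFA array lay above every SFA array for 11 of the 40 genes, against 3.15% of the probes. These calls were fragile. Only Lgmn was called with the slide as a block, 0 were called when LFA and SFA were fitted alone, and leaving out SFA replicate 2, 3 or 4 or LFA replicate 2 or 4 left 1 call. Leaving out control replicate 1 or 3, SFA replicate 1, LFA replicate 1, NTS replicate 3 or NTL replicate 1 or 4 left 3 calls.

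NTL exceeded NTS with 8 genes called higher, against 4.92% of all probes, and 0 lower, against 2.65%. These were Ctss (2.75 ± 0.36, adjusted p = 0.000168), Cd68 (2.38 ± 0.34, adjusted p = 0.000287), Laptm5 (2.17 ± 0.29, adjusted p = 0.000184), Gusb (1.66 ± 0.25, adjusted p = 0.000479), Lgmn (1.44 ± 0.26, adjusted p = 0.0017), Tcirg1 (1.37 ± 0.32, adjusted p = 0.0115), Glb1 (1.28 ± 0.22, adjusted p = 0.00152) and Grn (1.06 ± 0.23, adjusted p = 0.00835). Every NTL array lay above every NTS array for 17 genes, against 7.67% of the probes. Without the 5 liver-rich arrays, which include NTS replicates 3 and 4, 14 genes were called higher, against 5.39% of all probes, and 1, Tfeb, lower, against 9.8%. With the slide or the scan day as a block the calls of Tcirg1 (1.34 and 1.18) and Grn (0.97 and 0.95) were lost, which left 6 genes in each, against 1.83% and 2.13% of all probes called higher. NTS had no array on slide 3 or scan day 2, which held 3 of the 4 NTL arrays, and NTL had none on slide 1. Macrophage markers gave 7 calls higher of 18 in LFA against SFA and 13 of 18 in NTL against NTS.

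Between the 2 long fibers 0 genes were called, as for all probes (0% higher and 0% lower). No gene reached an unadjusted p under 0.05 either, as 1.54% of all probes did, and the differences of NTL minus LFA ran from −0.86 (Ctse) to 0.64 (Ctss), with a median of 0.17. The difference between the length effect of nanotubes and that of asbestos was also uncalled for all 40 genes and all probes (0% in each direction), with Ctss at 1.08 and Laptm5 at 0.93 the 2 genes under an unadjusted p of 0.05, as were 3.46% of all probes. Standard errors of 0.36 for the Ctss difference between NTL and LFA leave room for differences near 2-fold, so these results do not show that the fibers acted alike.

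The arrays were spread over 3 slides. Within each slide that held control and a long-fiber group, the median difference of the 40 genes was above 0, but few arrays were compared. Slides 1, 2 and 3 held 1, 2 and 1 control arrays, 2, 1 and 1 LFA arrays and 0, 1 and 3 NTL arrays. They held 0, 2 and 2 SFA arrays and 2, 2 and 0 NTS arrays. On slide 2 the control arrays included replicate 2, and the LFA array was the liver-rich replicate 1. Their median difference of LFA against control was 0.64 on slide 1, 0.45 on slide 2 and 0.64 on slide 3, and that of NTL was 0.60 on slide 2 and 0.82 on slide 3. Ctss stood 2.78, 1.45 and 2.26 above control in LFA on the 3 slides, and 2.35 and 2.55 in NTL on slides 2 and 3. SFA against control gave medians of −0.08 and 0.06 on slides 2 and 3, and NTS gave 0.18 and −0.15 on slides 1 and 2.

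A further 126 genes listed by name are called other lysosomal genes here, of which 115 could be tested. The list also includes cathepsin inhibitors and sorting and regulator genes, not all of whose products are lysosomal. Against control 7 were called higher and 0 lower in LFA (median −0.06), and 13 higher and 1 lower in NTL (median 0.09), beside the shares of all probes given above. By group, 3 of 33 other hydrolases were called higher in LFA and 4 in NTL, 1 and 2 of 24 other membrane proteins, 0 and 2 of 6 other proteases, and 1 and 3 of 12 cathepsin inhibitors. Of 23 sorting and regulator genes 1 was called in each, and of 17 other pump subunits 1 in each.

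Slc11a1 encodes the phagosomal metal transporter of macrophages. Slc11a1 read 0.14, −0.22, 0.58 and 0.27 in control replicates 1 to 4, 0.53, −0.13, 0.53 and 0.81 in SFA and 0.42, 0.27, 0.38 and 0.32 in NTS. It read 2.15, 2.27, 0.91 and 2.63 in LFA and 2.26, 1.54, 3.06 and 2.09 in NTL. LFA replicate 3 was the lowest long-fiber array and still above every control and short-fiber array. Slc11a1 changed by 1.80 ± 0.35 (adjusted p = 0.0093) in LFA and 2.05 ± 0.35 (adjusted p = 0.00183) in NTL.

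Tfec, a relative of TFEB found in macrophages, was not well above background on any control array, and its level was at least 5.33-fold above control in LFA, with a bound of at least 6.44-fold in NTL (adjusted p = 0.0248 and 0.00858), with 3 of 4 LFA and 4 of 4 NTL arrays above background. Stfa2l1, a stefin that inhibits cysteine cathepsins, was above background on no control array and at least 2.89-fold above them in LFA, with a bound of at least 2.84-fold in NTL (adjusted p = 0.0248 and 0.0157). These bounds set each control array at the lowest signal well above background on it, or at the probe's own signal where that was higher. The LFA mean of Tfec includes the array that was not above background, so that bound is not strict.

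Arsg, a lysosomal sulfatase, changed by 1.65 ± 0.46 (adjusted p = 0.0469) in LFA and 1.56 ± 0.46 (adjusted p = 0.0427) in NTL, and it was also high in NTS replicates 3 and 4, at 0.39 and 1.12 against −1.07 and −1.56 in replicates 1 and 2. Naaa, for an acid amidase, named after its values were seen, was also called in LFA (1.01) and NTL (1.24). Cst6, a cystatin, was called lower in NTL, at −1.38. Gpnmb and Ctsk, the cathepsin of osteoclasts, likewise named afterwards, changed by 3.76 and 1.77 in NTL and were not called in LFA (2.42 and 1.10). Of the other lysosomal genes, 3 were called in LFA without control replicate 1, 2 or 4 or LFA replicate 1, and 2 without LFA replicate 2 or 4. In NTL 12 were called without control replicate 2, and 9 without control replicate 4, NTL replicate 2 or NTL replicate 4.

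**Figure D5:**
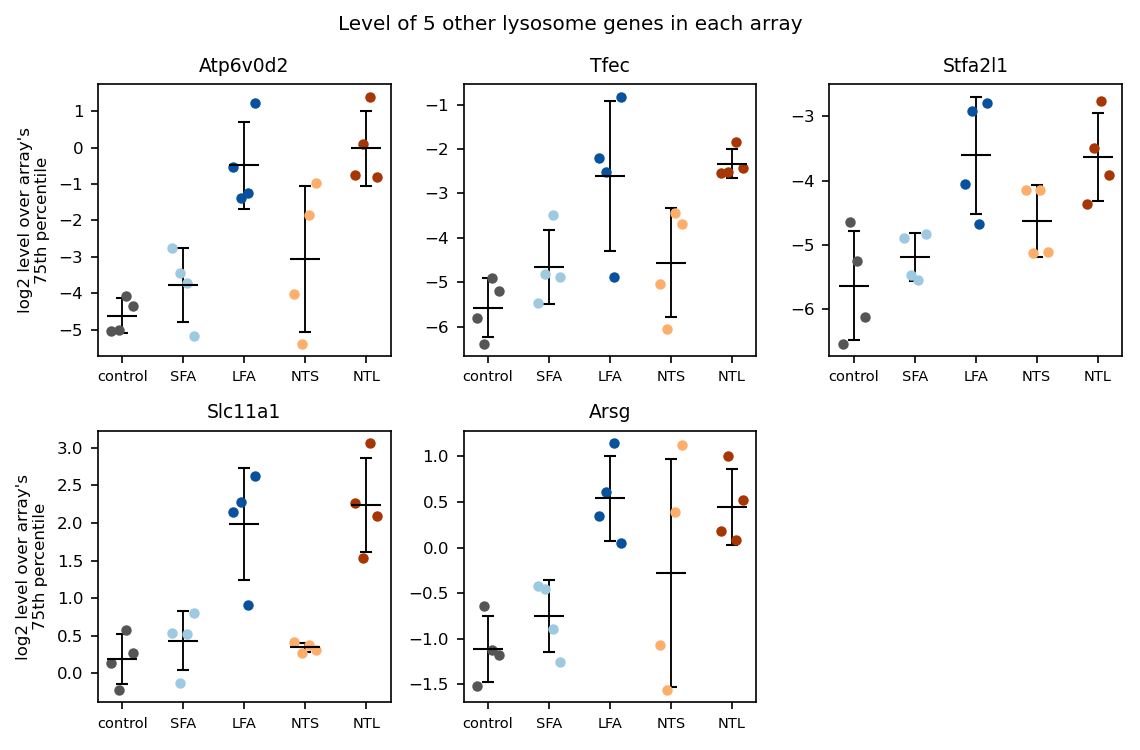
Log2 level of 5 other lysosomal genes in each of the 20 arrays (points, in replicate order), with the mean and SD of each group of 4. The scale differs between panels. NTL arrays lie above all control arrays in each panel. LFA replicate 3 stands close to the highest control array for Tfec and Stfa2l1, and Arsg is also high in NTS replicates 3 and 4.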

How the data were processed

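RNA from 20 diaphragms (5 groups of 4) was labeled with Cy3 and hybridized to Agilent 60K mouse arrays. The deposited intensity files hold the processed signal of each spot from Agilent Feature Extraction 10.7.3.1 (per the labels), background-subtracted and detrended within the array but not normalized between arrays. A deposited log2 table of group means, normalized by the authors in GeneSpring by steps the file does not state, served as an alternative for medians and changes.

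Control spots and flagged spots (92 to 204 of 59305 per array) were left out. Log2 signals were set relative to the 75th percentile of the array, spots of a probe were averaged, and each gene took its brightest probe over the 20 arrays. Of 55681 probes, 36920 were well above background on at least 4 arrays and were tested with limma 3.58.1 (R 4.3.3), with 1 mean per group and Benjamini-Hochberg adjustment. Scripts were tested on simulated data. The arrays shared correlations of 0.865 to 0.986, no spot was saturated, and 53% to 68.1% of non-control spots were well above background. All sample columns were used.

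The genes, lists and tests were chosen with earlier results of these data known. Values in every array are given for the genes called in both long-fiber groups or called lower, and for Lamp1, Ctsd and Ctse. Of the other lysosomal genes, the 6 with the largest change called in both long-fiber groups, those called lower and each called pump subunit are named, except 1 gene whose values are not reported here. Slides, read from the names of the intensity files, and scan days, read from their headers, were tried as blocks. Same-numbered arrays of NTL and control deviated together (correlations 0.112 to 0.689 in all 4 pairs), which met the criterion for pairing, and those of LFA and control did not (−0.51 to 0.58). Other alternatives were quantile normalization, normexp background correction, other filters and probe rules, the methods' unequal-variance test, leaving out each array and, added after seeing the data, leaving out the 5 liver-rich arrays and taking the percentile over probes.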

Additional observations from a re-analysis of the deposited data

Results flagged for a closer look

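Within each group of 4 arrays, 200 sets of values (40 genes in 5 groups) were examined for 1 array apart from the other 3 by Dixon's criterion, which chance meets in about 1 of 20 sets. It was met in 20 sets (10%), 9 of them by control replicate 2. In no gene did all arrays of 1 group lie above and, in a second comparison, all arrays of the other group below those they were compared with.

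Control replicate 2 was low for Asah1 at −1.77 (others 0.61 to 0.94), Atp6v1b2 at −3.44 (others −0.79 to −0.70), Ctsc at −0.69 (others 1.30 to 1.48) and Ctsf at 1.61 (others 1.90 to 1.92). It was high for Cd63 at 7.69 (others 5.99 to 6.15), Ctsl at 7.17 (others 5.48 to 5.61), Gla at 8.52 (others 7.51 to 7.67), Lamp1 at 8.26 (others 7.19 to 7.29) and Mcoln1 at 3.76 (others 2.79 to 2.92). Control replicate 4 was high for Atp6v0b at 3.60 (others 3.35 to 3.38).

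NTS replicate 4, a liver-rich array, was low for Atp6v0c at 3.05 (others 4.58 to 4.84) and high for Atp6v1a at 3.49 (others 1.95 to 2.13), Ctse at −3.48 (others −4.98 to −4.90) and Lgmn at 4.67 (others 4.45 to 4.46). SFA replicate 2, also liver-rich, was low for Laptm5 at 1.20 (others 1.97 to 2.10) and Scarb2 at 0.59 (others 1.64 to 1.79).

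Among long-fiber arrays, LFA replicate 4 was high for Gusb at 3.59 (others 2.88 to 2.95). NTL replicate 2 was high for Cd63 at 7.30 (others 6.59 to 6.68) and low for Ctsz at 4.94 (others 5.31 to 5.37), and NTL replicate 3 was low for Laptm5 at 2.38 (others 3.47 to 3.54).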

How the results depend on the processing

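No change of a called gene reversed direction in any alternative. In LFA against control Ctss, Cd68, Gusb and Laptm5 kept their calls in all 31 alternatives, and in NTL against control so did these and Lgmn, Ctsz and Tcirg1. With 4 arrays a group, dim probes such as Ctse were read with little signal over background. Quantile normalization moved the split of all probes called from 816 higher and 646 lower to 983 and 312 in LFA against control, from 1344 and 1167 to 1557 and 598 in NTL against control, and from 1817 and 980 to 2249 and 604 in NTL against NTS (1313 and 1269 after normexp). The cause of these shifts was not tested.

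Of the 40 genes, LFA against control called 8, but 5 when fitted alone and 13 without the liver-rich arrays. NTL against control called 12, but 7 with scan day as a block. NTS against control called 0, and 1 by the methods' test, whose p is for the 5 groups together. LFA against SFA called 6, but 3 with no filter, 1 with slide as a block and 0 fitted alone. NTL against NTS called 8, but 15 after quantile normalization, 15 without the liver-rich arrays and 6 with slide or scan day as a block (Tcirg1 and Grn were lost). Leaving out 1 array gave 4 to 9, 9 to 12, 1 to 7 and 8 to 11 calls in LFA and NTL against control, LFA against SFA and NTL against NTS, and 0 in the other comparisons.

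With the replicate number as a block, 7 genes were called in LFA against control (Tfeb was lost), 12 in NTL against control, 3 in LFA against SFA (Ctss, Gusb and Laptm5 were lost) and 8 in NTL against NTS, and of the other lysosomal genes 6, 13, 0 and 9. Only NTL and control met the pairing criterion.

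Of the other lysosomal genes, LFA against control called 7, but 4 with no filter, 4 with the all-array filter, 4 with slide as a block and 2 fitted alone. NTL against control called 14, but 8 with slide, 7 with scan day and 9 by the methods' test. LFA against SFA called 1, but 2 after quantile normalization, 0 with no filter, slide or fitted alone, and 3 without the liver-rich arrays. NTL against NTS called 11, but 2 with slide, 2 with scan day, 6 fitted alone and 19 without the liver-rich arrays. Leaving out 1 array gave 2 to 8, 9 to 14, 0 to 2 and 7 to 16.

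The median change of the 40 genes in NTL against control (0.61) was 0.88 after quantile normalization and 0.82 within slide 3, and in NTL against NTS (0.61) 0.92 after quantile normalization and 0.83 without the liver-rich arrays. In NTL against LFA (0.17) it was −0.057, below 0, without them. Leaving out 1 array gave medians of 0.40 to 0.61 in LFA, 0.48 to 0.76 in NTL, −0.10 to 0.03 in SFA and −0.05 to 0.07 in NTS against control, 0.38 to 0.67 in LFA against SFA, 0.54 to 0.77 in NTL against NTS, 0.06 to 0.23 in NTL against LFA and −0.01 to 0.20 for the difference of length effects. Over all alternatives and comparisons, 234 counts of the 40 genes and 264 medians stayed close to the main values, and 25 and 5 did not. Counts that stayed at 0 are among the 234. For the other lysosomal genes 90 counts stayed close and 40 did not. Of the changes of called genes, 153 lost the call, 21 moved and 982 did neither. The methods' test, with 1 p over the 5 groups, was taken with the change of each fiber group against control. The authors' table of group means gave medians and changes but no counts, and the difference of length effects was not fitted alone.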
